A study of Mus musculus with 12 samples.

Results

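Mouse bone-marrow derived macrophages (BMDMs) of the group named Myelin Alone were set against those of the group named Control, over every gene of the deposited table. The comparison uses 6 of the 12 libraries of the ex vivo experiment, 3 for Myelin Alone and 3 for Control, chosen by the treatment label. The mn numbers in the titles, 957, 958 and 016, occur once in every group, and libraries were paired by that number. The other 6 libraries, 3 Full Tumor and 3 Tumor without Myelin, carry the same numbers and entered the fit to estimate the spread. Per the labels, all 12 libraries are dTomato+ BMDMs sorted out of assays with bone marrow and dissociated brain tumor as the source material. The labels do not give the strain or age of the mice, the cells in which dTomato is driven, the amount of myelin, the length of the exposure, what Control macrophages received, or what "mn" means. Nothing states that libraries of a group come from separate mice, so the p-values measure the spread between these samples only, which may be technical. Values of 3 libraries are listed below for the numbers 957, 958 and 016 in that order, means carry the SD (n = 3 each), and log2 fold changes are Myelin Alone over Control with their standard error.

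Macrophages clear myelin debris by phagocytosis, and myelin is a membrane unusually rich in cholesterol and galactolipids, which must then be broken down in lysosomes, stored as esters, or exported. Cells sense sterols through opposing systems. When membrane sterol is low, SCAP carries the transcription factor SREBP2 to the Golgi, where it is cut and switches on the genes of cholesterol synthesis and lipoprotein uptake, and INSIG proteins hold it back when sterol is plentiful. When oxysterols or the sterol intermediate desmosterol accumulate, liver X receptors (LXRs) switch on genes of cholesterol efflux, such as the transporters ABCA1 and ABCG1.

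The 6 libraries held 17133919 to 20725607 counts and 16647 to 17321 detected genes, with 0.287% to 0.941% of counts on mitochondrial genes. Levels are given as CPM (counts scaled by the library total and its TMM factor). The floor taken for a gene at 0 is 3 counts, equal to 0.145 to 0.175 CPM in these libraries, and covers counting error only. The macrophage label was checked on 12 macrophage markers, which summed to 18243, 19452 and 15635 CPM in Myelin Alone and 17609, 19365 and 15338 CPM in Control, with none at 0. Since these are bulk libraries, fewer cells of a type and less RNA per cell cannot be told apart.

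Of 13414 tested genes, 5 passed an adjusted p of 0.05 in edgeR's quasi-likelihood test with the mn number as a block, which is 0.0373% of them. The squalene epoxidase gene Sqle, the lanosterol demethylase gene Cyp51, the adaptor gene Dok2 and the chemokine gene Ccl6 fell in Myelin Alone (4 genes, 0.0298%), and the phospholipid transfer protein gene Pltp rose (1 gene, 0.00745%). At an unadjusted p under 0.05 there were 810 genes (6.04%), 474 higher (3.53%) and 336 lower (2.5%). The median log2 fold change over all tested genes was 0.010, with 51.9% of genes above 0. The count of 5 depends on the fit. Without the mn number as a block 0 genes passed (279 at an unadjusted p under 0.05), and leaving out a single library of the comparison gave 0 genes without any of the 3 Myelin Alone libraries or without Control 958, 1 without Control 957 and 7 without Control 016. All 5 genes kept their direction in each of 23 alternatives.

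**Figure D1:**
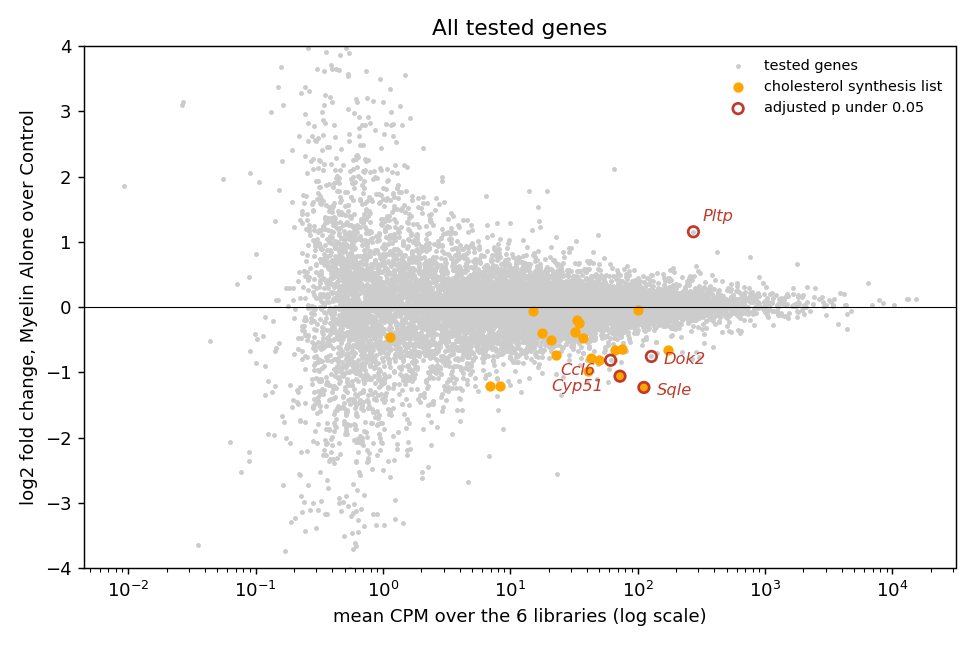
Log2 fold change of Myelin Alone over Control (y) against the mean CPM over the 6 libraries (x, log scale) for 13414 tested genes (grey points), with the 20 genes of cholesterol synthesis in orange and the 5 genes with an adjusted p under 0.05 circled in red. The orange points all lie below 0, and Pltp is the single circled gene above 0; 63 genes with values beyond ±4 are not drawn.

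Genes of cholesterol synthesis lay on the low side in Myelin Alone. All 20 measured genes had a negative log2 fold change, with a median of −0.65 against 0.010 for all tested genes, although Ebp, Mvk and Fdps took either sign when libraries were left out. The 2 that fell past the adjusted threshold were Sqle and Cyp51. At an unadjusted p under 0.05, 13 of the 20 were lower and 0 higher, against 2.5% and 3.53% of all tested genes. Myelin Alone lay wholly below Control for 11 of them, against 2.57% of all tested genes, and 14 were lower in all 3 pairs, against 12.2%. Summed over the list, synthesis genes reached 797, 659 and 791 CPM in Myelin Alone and 1131, 1031 and 1374 CPM in Control, so the groups did not overlap. The median of the list was −0.47, −0.76 and −0.72 within the pairs 957, 958 and 016.

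Sqle, at chr15:59315077-59331192 in mm10, encodes squalene epoxidase, the first oxygen-requiring step of sterol synthesis. It had 67.1, 54.2 and 75.5 CPM in Myelin Alone and 142, 110.0 and 223 CPM in Control. Every Myelin Alone library was below every Control library, and the highest Control value, that of 016, stood beside the highest Myelin Alone value. The log2 fold change was −1.23 ± 0.14, a level 0.426 times that of Control (edgeR adjusted p = 0.0137). Cyp51, at chr5:4081145-4104746, encodes the demethylase that acts on lanosterol, and it had 54.9, 41.6 and 44.7 CPM in Myelin Alone and 103, 78.4 and 113 CPM in Control. The groups did not overlap here either, and the log2 fold change was −1.06 ± 0.14 (edgeR adjusted p = 0.0307).

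The upper, mevalonate arm turns acetyl-CoA into farnesyl pyrophosphate. Acat2 and Hmgcs1, at its start, were lower without passing the adjusted threshold. Acat2, the acetyl-CoA thiolase, had 14.3, 18.3 and 18.4 CPM in Myelin Alone and 22.2, 29.0 and 33.8 CPM in Control. Hmgcs1, HMG-CoA synthase, had 51.4, 28.1 and 30.3 CPM in Myelin Alone and 64.4, 59.0 and 66.3 CPM in Control. In both genes the groups did not overlap, with log2 fold changes of −0.73 ± 0.19 for Acat2 and −0.81 ± 0.21 for Hmgcs1 (edgeR adjusted p = 0.456 and 0.456). Further along, Mvd, the mevalonate diphosphate decarboxylase, had a log2 fold change of −0.77 ± 0.19, and Idi1, the isopentenyl diphosphate isomerase, one of −1.21 ± 0.34, again with every Myelin Alone library below every Control library. Idi1 had 7.27, 2.32 and 5.76 CPM in Myelin Alone and 10.9, 7.57 and 16.3 CPM in Control. The mevalonate kinase Mvk (−0.054 ± 0.22) and the phosphomevalonate kinase Pmvk (−0.24 ± 0.17) were lower in only 2 of 3 pairs. Fdps, farnesyl pyrophosphate synthase, had 0.895, 1.54 and 0.388 CPM in Myelin Alone and 0.532, 1.54 and 1.91 CPM in Control, close to the floor in several libraries. Mouse Fdps has processed pseudogenes, and no source used here states how reads that match several places were counted, so its value is uncertain.

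Of the enzymes that join, close and demethylate the squalene chain, Fdft1, squalene synthase, had 25.5, 23.3 and 32.3 CPM in Myelin Alone and 52.6, 51.9 and 56.7 CPM in Control, with no overlap and a log2 fold change of −0.98 ± 0.22 (edgeR adjusted p = 0.273). Lss, lanosterol synthase, differed less (−0.38 ± 0.18), although it was lower in all 3 pairs. Msmo1, the methylsterol monooxygenase, had 152, 102 and 145 CPM in Myelin Alone and 205, 156 and 275 CPM in Control, and again each Myelin Alone library was below each Control library (−0.66 ± 0.15). Nsdhl, which works beside it, also separated the groups (−0.48 ± 0.17), while Tm7sf2, a sterol reductase, was lower in all pairs with overlapping groups (−0.51 ± 0.18). Hsd17b7, the sterone reductase of the same complex, was lower in 2 of 3 pairs (−0.39 ± 0.25).

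The last steps were split. Sc5d, the sterol desaturase, had 58.3, 38.6 and 58.9 CPM in Myelin Alone and 71.4, 70.6 and 102 CPM in Control and separated the groups (−0.65 ± 0.16). Ebp, the sterol isomerase, differed by −0.047 ± 0.11 and was lower in 1 of 3 pairs, and Dhcr7, which reduces 7-dehydrocholesterol, differed by −0.20 ± 0.20 and was lower in 2 of 3. The genes closest to 0 were thus Ebp, Mvk, Dhcr7 and Pmvk, spread over both arms of the pathway.

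**Figure D2:**
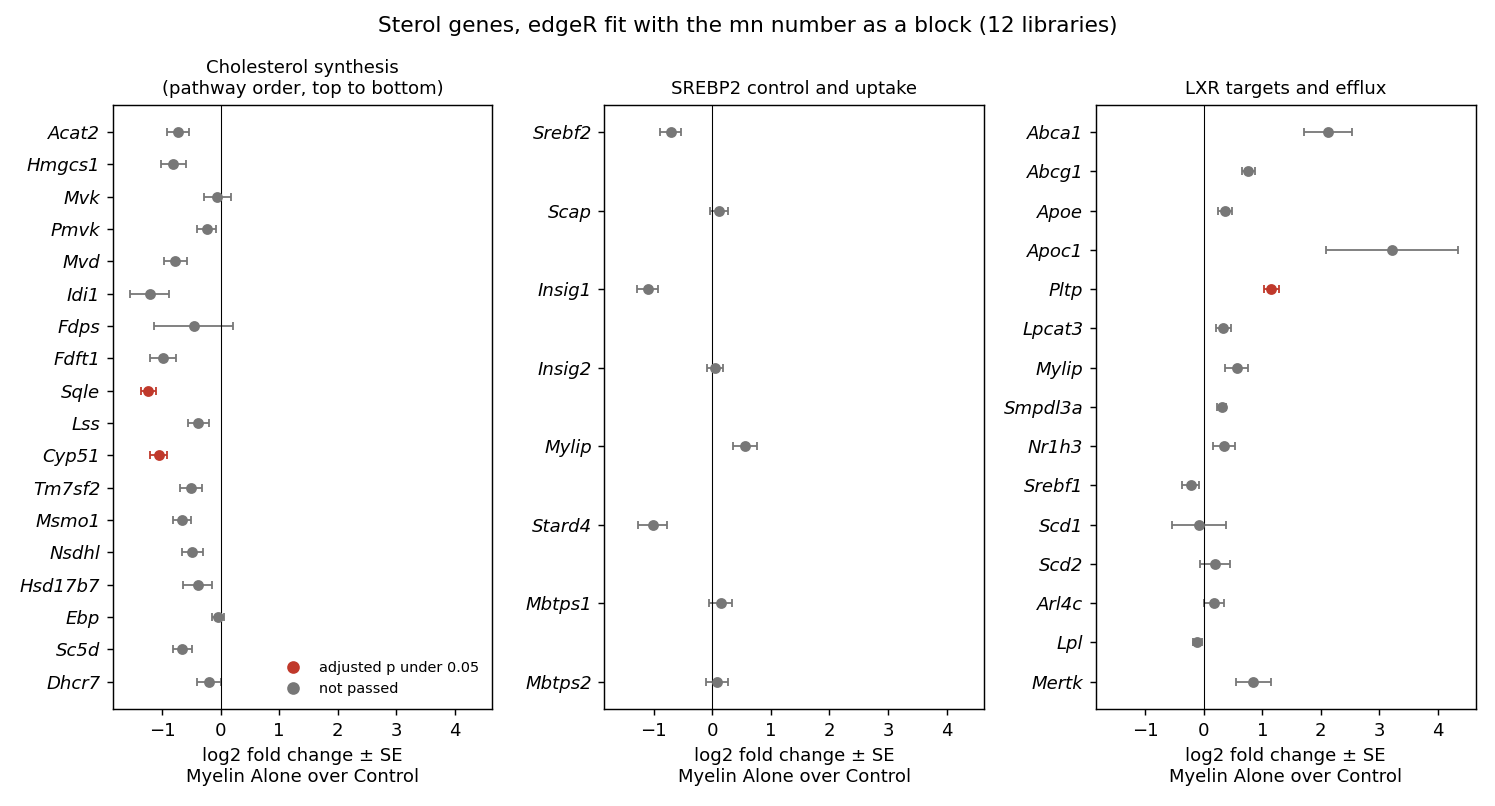
Log2 fold change ± SE of Myelin Alone over Control from the edgeR fit for the genes of cholesterol synthesis in pathway order (left), of SREBP2 control and sterol uptake (middle) and of LXR targets and efflux (right), with genes past an adjusted p of 0.05 in red. All 18 synthesis genes drawn lie left of 0, with Sqle and Cyp51 in red. Insig1, Stard4 and Srebf2 lie left of 0 in the middle panel, and 12 of 15 LXR targets lie right of 0, with Pltp in red.

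The promoters of 4 genes that stand for these groups are shown because SREBP2 and LXRs are known to act through short DNA elements near such genes. Each is 300 bases of RefSeq sequence (GRCm38.p6), 250 before and 50 after the start, read 5′ to 3′ along the gene. Capitals mark the sterol element letters TCACCCCAC, the CCAAT box (ATTGG on the other strand) that NF-Y binds and the GGGCGG box (CCGCCC on the other strand) that SP1 binds. Cyp51 is at chr5:4104648-4104947 on the minus strand, Hmgcs1 at chr13:119690101-119690400 on the plus strand, Insig1 at chr5:28071162-28071461 on the plus strand and Pltp at chr2:164857659-164857958 on the minus strand.
Cyp51: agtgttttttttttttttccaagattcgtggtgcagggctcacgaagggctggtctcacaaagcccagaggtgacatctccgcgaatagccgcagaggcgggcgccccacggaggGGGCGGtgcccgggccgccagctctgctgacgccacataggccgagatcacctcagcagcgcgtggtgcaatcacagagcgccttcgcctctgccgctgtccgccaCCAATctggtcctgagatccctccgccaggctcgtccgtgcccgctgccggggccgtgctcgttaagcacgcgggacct
Hmgcs1: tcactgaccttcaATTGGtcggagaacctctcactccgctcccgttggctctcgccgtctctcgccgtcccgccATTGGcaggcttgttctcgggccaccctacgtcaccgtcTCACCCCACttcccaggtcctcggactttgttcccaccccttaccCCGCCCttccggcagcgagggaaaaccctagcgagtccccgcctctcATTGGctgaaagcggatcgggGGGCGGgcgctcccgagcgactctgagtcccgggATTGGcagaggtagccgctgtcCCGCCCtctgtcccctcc
Insig1: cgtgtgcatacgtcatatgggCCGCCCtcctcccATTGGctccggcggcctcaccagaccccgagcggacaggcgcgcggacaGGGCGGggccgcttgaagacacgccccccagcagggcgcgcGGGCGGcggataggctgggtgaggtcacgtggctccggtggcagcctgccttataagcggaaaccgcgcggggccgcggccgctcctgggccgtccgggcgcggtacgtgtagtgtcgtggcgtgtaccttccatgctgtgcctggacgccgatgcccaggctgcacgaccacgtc
Pltp: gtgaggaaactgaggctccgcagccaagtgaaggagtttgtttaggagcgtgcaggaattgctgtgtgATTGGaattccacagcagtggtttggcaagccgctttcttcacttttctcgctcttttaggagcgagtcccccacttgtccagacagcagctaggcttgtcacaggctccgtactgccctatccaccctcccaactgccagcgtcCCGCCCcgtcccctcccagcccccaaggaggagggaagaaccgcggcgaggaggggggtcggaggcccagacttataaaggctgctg
Hmgcs1 is the gene of the list with TCACCCCAC in this window, besides 4 CCAAT and 3 GGGCGG matches. Cyp51 and Pltp hold 1 CCAAT and 1 GGGCGG match each, and Insig1 holds 1 CCAAT and 3 GGGCGG matches.

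Both strands were searched. RefSeq windows were at hand for 15 of the 20 synthesis genes, Fdft1, Fdps and Sqle being among those not matched. Genes of the lists and tested genes were counted once each, as a match if any of their windows held the letters. The share of all windows counts single windows and is thus not the same unit. CCAAT was in 14 of the 15 genes (93.3%), against 43.3% of the 9824 tested genes with a window and 37.4% of all 32851 windows. GGGCGG was in 14 of 15 (93.3%), against 67.6% of tested genes and 35.7% of all windows. TCACCCCAC was in 1 of 15 (6.67%), against 0.682% of tested genes and 0.551% of all windows. The looser TCACNNCAC, of which TCACCCCAC is an instance, was in 4 of 15 (26.7%), those of Dhcr7, Hmgcs1, Hsd17b7 and Msmo1, against 4.32% of tested genes and 3.77% of all windows. The repeat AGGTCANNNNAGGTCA, a form of the LXR element, was in 0 windows of the lists, in 0 of tested genes and in 0.0152% of all windows. Of the 10 LXR list genes with a window (Abcg1, Apoc1, Lpl, Scd1, Scd2 and Smpdl3a missing), 5 held CCAAT (50%) and 7 held GGGCGG (70%). Of the 7 genes of the SREBP2 control list with a window (Stard4 was not matched), 4 held CCAAT (57.1%) and 6 held GGGCGG (85.7%). A match is a description of these letters and shows no binding, and the absence of a match says only that the letters are not in this window.

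Genes that control SREBP2, or that SREBP2 controls outside synthesis, were divided by role. Insig1, the sterol-sensing retention protein and itself an SREBP2 target, had 29.9, 41.3 and 22.3 CPM in Myelin Alone and 60.8, 74.5 and 58.1 CPM in Control. The Myelin Alone libraries were all below the Control libraries (−1.10 ± 0.18, edgeR adjusted p = 0.0944). Stard4, a cytosolic sterol carrier, had 6.85, 15.2 and 13.2 CPM in Myelin Alone and 20.7, 27.9 and 21.6 CPM in Control (−1.01 ± 0.25), and Srebf2, the gene of SREBP2 itself, had 30.7, 23.3 and 30.2 CPM in Myelin Alone and 45.8, 39.3 and 52.6 CPM in Control (−0.71 ± 0.18), both without overlap of the groups. The factors that escort or cut SREBP2 were near 0: Scap 0.12 ± 0.16, Insig2 0.052 ± 0.14, and the site proteases Mbtps1 0.14 ± 0.20 and Mbtps2 0.091 ± 0.19. Over the 9 tested genes 4 were lower and 1, Mylip, which is also on the LXR list, higher at an unadjusted p under 0.05, 0 passed the adjusted threshold, and the median was 0.052, which turned negative without Myelin Alone 957 or 958 (−0.099 in both) or Control 016 (−0.014).

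**Figure D3:**
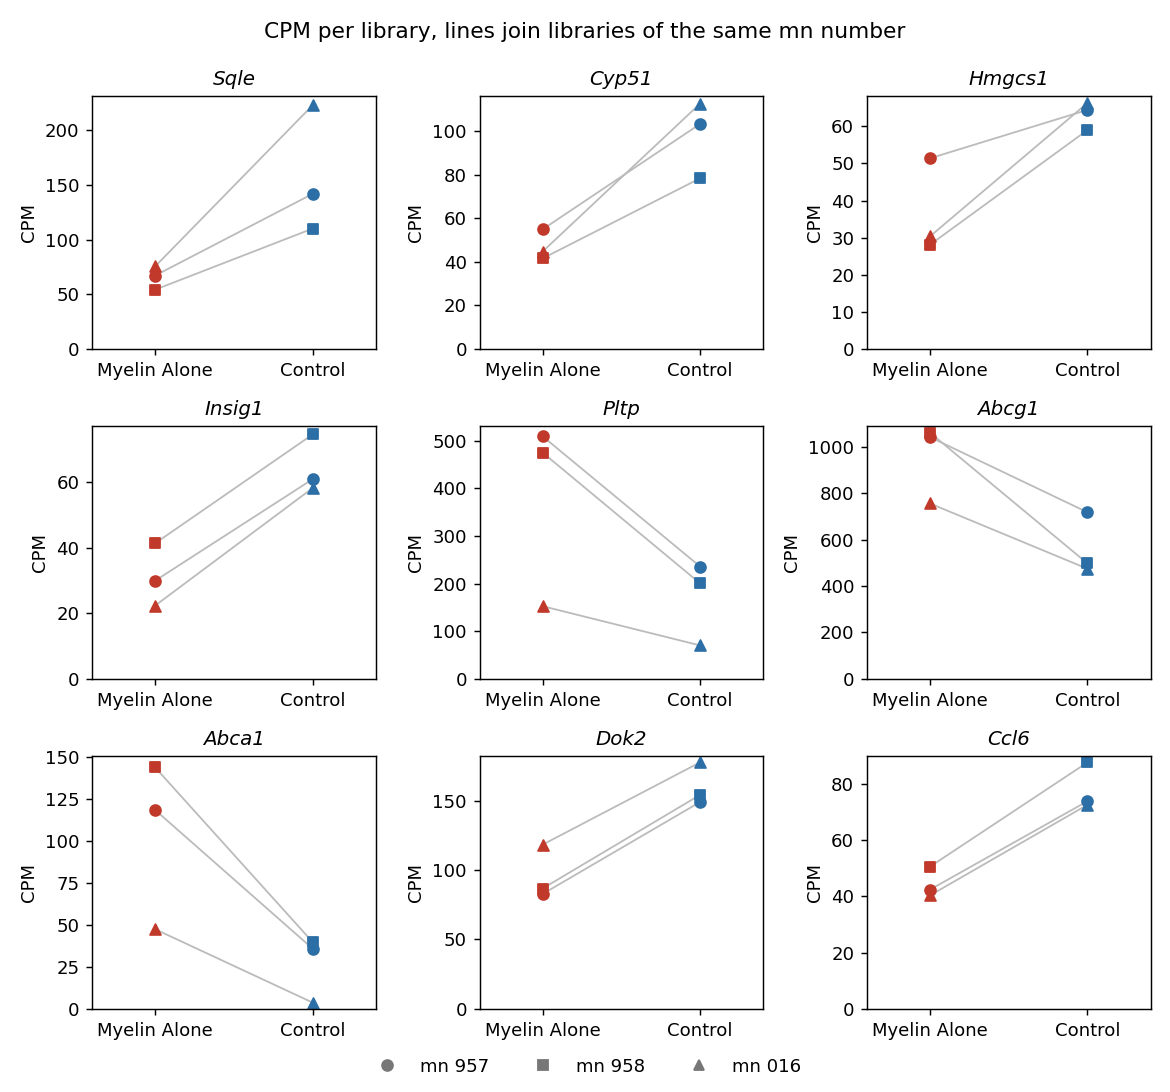
CPM of 9 genes in each library of Myelin Alone (red, left) and Control (blue, right), with a line joining libraries of the same mn number and a different symbol for each number; every y axis starts at 0. Sqle, Cyp51, Hmgcs1, Insig1, Dok2 and Ccl6 are lower in Myelin Alone along all 3 lines without overlap, and Pltp, Abcg1 and Abca1 are higher along all 3 lines.

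Genes of efflux and other LXR targets were mostly higher. Of 15 tested genes 12 had a positive log2 fold change, with a median of 0.36 against 0.010 for all tested genes, and 1, Pltp, rose past the adjusted threshold. At an unadjusted p under 0.05, 9 were higher and 0 lower, against 3.53% and 2.5% of all tested genes, and 9 were higher in all 3 pairs, against 13.6%. Myelin Alone lay wholly above Control for 3, Abca1, Abcg1 and Smpdl3a, against 3.19% of all tested genes. The median of the list was 0.38, 0.58 and 0.35 within the pairs 957, 958 and 016. Pltp, at chr2:164839518-164857711, encodes a secreted protein that moves phospholipid onto high-density lipoprotein. It had 509, 475 and 153 CPM in Myelin Alone and 236, 200.5 and 70.3 CPM in Control, higher in Myelin Alone in every pair. The groups overlapped, since both 016 libraries were low, but the difference was alike in the 3 pairs, and the fitted level was 2.23 times that of Control (1.15 ± 0.13, edgeR adjusted p = 0.0137).

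Abcg1, which exports cholesterol to high-density lipoprotein, had 1041, 1059.9 and 755 CPM in Myelin Alone and 717, 497 and 474 CPM in Control, with every Myelin Alone library above every Control library and a log2 fold change just outside the threshold (0.76 ± 0.11, edgeR adjusted p = 0.0512). Abca1, which loads cholesterol and phospholipid onto apolipoprotein A-I, had 118, 144 and 47.4 CPM in Myelin Alone and 35.8, 39.7 and 3.73 CPM in Control. It had the highest log2 fold change of the 24 genes ranked by size, 2.12 ± 0.41, with no overlap, and its pairs differed in size, the Control library of 016 being the lowest (edgeR adjusted p = 0.190). Smpdl3a, a secreted phosphodiesterase, had 1341, 1054 and 1016 CPM in Myelin Alone and 987, 960.4 and 797 CPM in Control and also separated the groups (0.31 ± 0.076). Mylip, a ubiquitin ligase, had 80.0 ± 21.1 CPM in Myelin Alone and 56.9 ± 26.3 CPM in Control (0.56 ± 0.20), and the phagocytic receptor Mertk had 36.7 ± 16.3 CPM in Myelin Alone and 21.0 ± 12.0 CPM in Control (0.85 ± 0.30), both higher in 3 of 3 pairs with overlapping groups. Apoe, an apolipoprotein that macrophages secrete, had 7146 ± 4216 CPM in Myelin Alone and 5653 ± 3433 CPM in Control (0.36 ± 0.12), and Lpcat3, which remodels membrane phospholipids, 89.4 ± 15.9 CPM in Myelin Alone and 72.0 ± 20.0 CPM in Control (0.34 ± 0.12). Nr1h3, the gene of LXR alpha, was higher in all 3 pairs by 0.36 ± 0.19. Apoc1 was at or near the floor in most libraries, with 0.632, 1.43 and 0 CPM in Myelin Alone and 0, 0.219 and 0 CPM in Control.

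The remaining genes of the LXR list, of which Srebf1, Scd1 and Scd2 are lipogenic, had log2 fold changes smaller in size than those above. Srebf1, the gene of SREBP1, had 44.5 ± 8.42 CPM in Myelin Alone and 52.2 ± 12.5 CPM in Control (−0.22 ± 0.15), and the desaturases Scd1 and Scd2 had log2 fold changes of −0.075 ± 0.46 and 0.20 ± 0.25. Lpl, lipoprotein lipase, had 4248 ± 135 CPM in Myelin Alone and 4573 ± 449 CPM in Control (−0.11 ± 0.083), and Arl4c, a small GTPase, differed by 0.18 ± 0.17, with a sign that turned to −0.017 without the libraries of number 958. None of these 5 passed an unadjusted p of 0.05 in edgeR. Of 14 genes of fatty acid synthesis, 12 had a negative and 2 a positive log2 fold change, with a median of −0.17, and 0 passed an unadjusted p of 0.05. That median was −0.071 without Myelin Alone 016, −0.10 without Control 958 and −0.30 without Control 016. Fasn, fatty acid synthase, had 24.1 ± 9.47 CPM in Myelin Alone and 32.4 ± 4.57 CPM in Control (−0.50 ± 0.25), and Elovl6, an elongase, 3.89 ± 1.12 CPM in Myelin Alone and 8.67 ± 2.75 CPM in Control (−1.09 ± 0.57).

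Among nuclear receptors and oxysterol enzymes, 8 of 9 genes were tested and the median was 0.021, with either sign once single libraries were left out. Rxra, the partner of LXR and PPAR, was higher in 3 of 3 pairs with 36.3 ± 15.1 CPM in Myelin Alone and 28.2 ± 15.2 CPM in Control (0.45 ± 0.16), and Pparg, a lipid-sensing receptor, was lower without overlap with 72.7 ± 8.44 CPM in Myelin Alone and 99.6 ± 5.01 CPM in Control (−0.47 ± 0.18). Neither passed the adjusted threshold. In fatty acid oxidation, 10 of 12 genes were above 0 with a median of 0.069 (0.0061 without Myelin Alone 957, 0.18 without Myelin Alone 016 and 0.12 without Control 016), and 2 were higher at an unadjusted p under 0.05, against 3.53% of all tested genes. Cpt1a, which takes long-chain fatty acids into mitochondria, had 163 ± 21.4 CPM in Myelin Alone and 126 ± 18.9 CPM in Control (0.37 ± 0.12), and the acyl-CoA dehydrogenase Acadl differed by 0.24 ± 0.11.

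Of 16 genes of lysosomal lipid breakdown, 12 were above 0 with a median of 0.19 (0.10 without Control 958 and 0.32 without Control 016), 6 were higher at an unadjusted p under 0.05, against 3.53% of all tested genes, and 0 passed the adjusted threshold. Scarb2, a lysosomal membrane protein that brings glucocerebrosidase to the lysosome, had 245, 207 and 191 CPM in Myelin Alone and 164, 125 and 142 CPM in Control. Every Myelin Alone library was above every Control library, with a log2 fold change of 0.57 ± 0.13 (edgeR adjusted p = 0.273). Of the 10 microglia markers, 9 had an entry and 8 were tested, of which 5 were above 0 and 3 below, with a median of 0.36. Their sums were 603, 593 and 586 CPM in Myelin Alone and 446, 511 and 384 CPM in Control. The defining gene Sall1 had no entry, and P2ry12, which also defines them, had 5, 1 and 27 counts in Myelin Alone and 13, 0 and 19 counts in Control. The part of these markers in the lysosomal values was not tested. Hexa, a subunit of a lysosomal glycosidase, differed by 0.30 ± 0.093, and Glb1, the lysosomal beta-galactosidase, by 0.45 ± 0.12. Enzymes that act on the lipids typical of myelin were not uniform. Arsa, which desulfates sulfatide, was higher in 3 of 3 pairs (0.55 ± 0.18), while Galc, which cleaves galactosylceramide, differed by −0.092 ± 0.18 and was higher in 1 of 3. Lipa, the acid lipase that frees cholesterol from esters, had 3422 ± 747 CPM in Myelin Alone and 3371 ± 667 CPM in Control (0.022 ± 0.092), and the sterol exporter of the lysosome Npc1 was higher in 3 of 3 pairs by 0.22 ± 0.10.

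For storage, 14 lipid droplet genes had a median of 0.0081, of either sign across the alternatives, with 1 higher and 0 lower at an unadjusted p under 0.05, against 3.53% and 2.5% of all tested genes. That gene was Plin2, a coat protein of lipid droplets, with 2932, 2313 and 2914 CPM in Myelin Alone and 2174, 1874 and 2615 CPM in Control, higher in every pair (0.30 ± 0.068, edgeR adjusted p = 0.322). Soat1, which esterifies cholesterol, differed by 0.15 ± 0.13, and its sign turned without Myelin Alone 957 (−0.046). Nceh1, which reverses that reaction, differed by 0.015 ± 0.073. Genes known from lipid-associated macrophages had a median of 0.12 (0.070 without Control 958), with 13 of 15 above 0 and 6 higher at an unadjusted p under 0.05, against 3.53% of all tested genes. Over this list 4 genes were higher and 1 was lower without overlap of the groups, against 3.19% and 2.57% of all tested genes. Among the 4, Ctsd, a lysosomal protease, had 4171 ± 273 CPM in Myelin Alone and 3571 ± 201 CPM in Control (0.22 ± 0.072), and the fatty acid binding proteins Fabp5 and Fabp4 differed by 0.38 ± 0.15 and 0.34 ± 0.14. Trem2, the lipid receptor that marks such cells, had 1914 ± 255 CPM in Myelin Alone and 1980.4 ± 326 CPM in Control (−0.041 ± 0.082), and Gpnmb had 15926 ± 3389 CPM in Myelin Alone and 14633 ± 3081 CPM in Control (0.12 ± 0.094).

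Receptors for uptake were divided. Of 20 scavenger and phagocytic receptors 13 were above 0 with a median of 0.046 (0.00016 without Myelin Alone 957 and −0.0072 without Control 016), 5 were higher and 2 lower at an unadjusted p under 0.05, against 3.53% and 2.5% of all tested genes, and 0 passed the adjusted threshold. Axl, a receptor for dead cells, had 102, 90.1 and 106 CPM in Myelin Alone and 85.9, 62.8 and 64.4 CPM in Control, and its ligand Gas6 had 213, 162 and 183 CPM in Myelin Alone and 139, 126 and 128 CPM in Control, each without overlap and at log2 fold changes of 0.49 ± 0.15 for Axl and 0.50 ± 0.17 for Gas6. The inhibitory Fc receptor Fcgr2b was also above Control in every library (0.46 ± 0.14). Clec7a, the beta-glucan receptor Dectin-1, had 358, 279.6 and 177 CPM in Myelin Alone and 463, 416 and 299.7 CPM in Control and was lower in 3 of 3 pairs (−0.56 ± 0.14, edgeR adjusted p = 0.386). Cd36, a scavenger receptor for oxidized lipid, had 2385 ± 656 CPM in Myelin Alone and 2348 ± 864 CPM in Control (0.054 ± 0.095), and Msr1 differed by 0.039 ± 0.11.

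Dok2 and Ccl6 were the called genes outside sterol metabolism. Dok2, at chr14:70766036-70778495, encodes an adaptor that dampens signals of tyrosine kinases in blood cells. It had 82.7, 86.7 and 118 CPM in Myelin Alone and 149, 154 and 178 CPM in Control, with all Myelin Alone libraries below all Control libraries (−0.76 ± 0.10, edgeR adjusted p = 0.0307). The other 9 adaptors and phosphatases of its list showed no such value: Dok1 differed by 0.083 ± 0.14 and Dok3 by 0.0092 ± 0.15, 0 of the 9 passed an unadjusted p of 0.05, and the median of the 10 was −0.015, close enough to 0 to turn positive without Myelin Alone 958 (0.050) or Control 957 (0.0081). Ccl6, at chr11:83587882-83593087, encodes a chemokine of the mouse made by myeloid cells. It had 42.4, 50.6 and 40.4 CPM in Myelin Alone and 73.9, 87.7 and 72.6 CPM in Control, lower in every pair and with no overlap (−0.81 ± 0.11, edgeR adjusted p = 0.0353).

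Of 16 tested chemokines and receptors, 11 were below 0 with a median of −0.21, and 5 were lower and 0 higher at an unadjusted p under 0.05, against 2.5% and 3.53% of all tested genes. The median was 0.022 without Myelin Alone 957, −0.47 without Myelin Alone 016, −0.019 without Control 957, −0.42 without Control 958 and −0.47 without Control 016. Ccl9, a relative of Ccl6 that binds CCR1, had 189, 215 and 561 CPM in Myelin Alone and 329, 376 and 663 CPM in Control, lower in 3 of 3 pairs (−0.61 ± 0.12, edgeR adjusted p = 0.216). The receptor Ccr1 had a log2 fold change of −0.68 ± 0.22, and Ccl3 differed by −0.45 ± 0.17. Ccl2, the monocyte attractant, was higher in 3 of 3 pairs by 0.58 ± 0.43 without passing an unadjusted p of 0.05. Cd14, the co-receptor for lipopolysaccharide, had 222, 242 and 213 CPM in Myelin Alone and 368, 412 and 366 CPM in Control, with no overlap of the groups (−0.76 ± 0.16, edgeR adjusted p = 0.230). Markers of neutrophils and their precursors were lower beside these genes: the 12 summed to 23.8, 25.4 and 140 CPM in Myelin Alone and 41.1, 94.8 and 288 CPM in Control, with Ly6g and Retnlg at 0 in all 6. Their part in the chemokine values was not tested.

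Interferon-induced genes had the lowest median of the pathway lists after cholesterol synthesis, with no gene past the adjusted threshold. Of 30 genes 28 were below 0, with a median of −0.61, 16 were lower in all 3 pairs, against 12.2% of all tested genes, and 6 were lower without overlap, against 2.57%. Only 1, Ifit2, was lower at an unadjusted p under 0.05, against 2.5% of all tested genes. It had 3.32, 1.82 and 2.27 CPM in Myelin Alone and 5.22, 5.38 and 22.6 CPM in Control, with a log2 fold change of −2.27 ± 0.78 that was −0.63 without Control 016 and −1.04 without both libraries of number 016. Irf7, which drives interferon production, had 22.4, 19.0 and 14.5 CPM in Myelin Alone and 33.6, 29.4 and 36.3 CPM in Control (−1.06 ± 0.82), and Isg15 differed by −1.09 ± 0.67. The median of the list was −0.28, −0.38 and −0.56 within the pairs 957, 958 and 016. It was −1.16 without Myelin Alone 016, 0.28 without Control 016 and −0.29 without both libraries of number 016, and it was −0.30 without Myelin Alone 958, −0.38 without Myelin Alone 957 and −1.08 without Control 958. The 12 neutrophil markers, whose sums are given above, were also highest in Control 016, and their part in the interferon values was not tested.

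Of 20 genes of proliferation, 19 were below 0 with a median of −0.29, 7 were lower in all 3 pairs, against 12.2% of all tested genes, and 1, the topoisomerase gene Top2a, was lower at an unadjusted p under 0.05, a share near the 2.5% of all tested genes. Top2a had 13.9, 35.7 and 83.5 CPM in Myelin Alone and 25.2, 60.3 and 107 CPM in Control (−0.69 ± 0.26), and Mki67, the gene of the Ki-67 antigen, had 14.8, 21.9 and 55.1 CPM in Myelin Alone and 20.3, 51.2 and 61.3 CPM in Control (−0.70 ± 0.33). The levels of both were higher in 016 than in the other numbers in each group. The median of the list was 0.0025 without Control 958, −0.59 without Control 016, −0.51 without Myelin Alone 958 and −0.19 without Myelin Alone 016. Inflammatory cytokine genes had a median of −0.33 over 10 genes with 0 past an unadjusted p of 0.05, and the median was 0.074 without Control 016, −0.14 without Control 958 or Myelin Alone 958 and −0.16 without Myelin Alone 016. Tnf had 36.5 ± 12.8 CPM in Myelin Alone and 37.0 ± 14.4 CPM in Control (−0.011 ± 0.18), while Il1rn, the interleukin-1 receptor antagonist, had 26.6, 6.45 and 88.8 CPM in Myelin Alone and 21.9, 8.29 and 295 CPM in Control, with a sign that turned without Control 016 (0.24). Genes of alternative activation had a median of −0.23 over 11 genes, which was 0.30 without the replicate block, −0.12 without Myelin Alone 957, 0.046 without Myelin Alone 958, −0.46 without Control 957 and 0.34 without Control 958. Among these Tgm2, a transglutaminase, separated the groups with 123, 102 and 103 CPM in Myelin Alone and 102, 85.7 and 66.6 CPM in Control (0.38 ± 0.11), and the scavenger receptor Stab1 was higher in 3 of 3 pairs (0.53 ± 0.22).

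Glycolysis and hypoxia genes were slightly higher as a list. Of 17 tested, 15 were above 0 with a median of 0.19 (0.10 without Control 016), 12 were higher in all 3 pairs, against 13.6% of all tested genes, and 7 were higher at an unadjusted p under 0.05, against 3.53%. None passed the adjusted threshold. Pgam1, phosphoglycerate mutase, had 289, 209 and 340.4 CPM in Myelin Alone and 217, 163 and 288 CPM in Control (0.34 ± 0.10), and Pfkfb3, which activates phosphofructokinase, had 34.7, 19.9 and 39.9 CPM in Myelin Alone and 18.3, 7.08 and 35.0 CPM in Control (0.84 ± 0.30). Eno1, enolase, had 2547 ± 312 CPM in Myelin Alone and 2283 ± 320.0 CPM in Control (0.16 ± 0.071). Gapdh had 101 ± 19.4 CPM in Myelin Alone and 78.4 ± 6.91 CPM in Control (0.34 ± 0.12), and since the mouse genome holds many pseudogenes of Gapdh and the counting of shared reads is not given, that value is uncertain. In the NRF2 and redox list 10 of 14 were above 0 with a median of 0.054 (0.085 without Myelin Alone 016 or Control 016), and 3 were higher at an unadjusted p under 0.05, against 3.53% of all tested genes. Hmox1, the heme oxygenase, had 2251, 1957 and 2376 CPM in Myelin Alone and 1607, 1362 and 1121 CPM in Control, with the groups apart (0.66 ± 0.19), and Gclm, a subunit of the enzyme of glutathione synthesis, was higher in 3 of 3 pairs (0.46 ± 0.16). Class II presentation had a median of 0.14 (0.33 without Control 016), with 8 of 10 above 0 and 0 past an unadjusted p of 0.05. Cd74, the invariant chain, had 501 ± 183 CPM in Myelin Alone and 417 ± 24.9 CPM in Control (0.16 ± 0.21), and the class II genes H2-Aa and H2-Eb1 differed by 0.44 ± 0.26 and 0.44 ± 0.27.

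**Figure D4:**
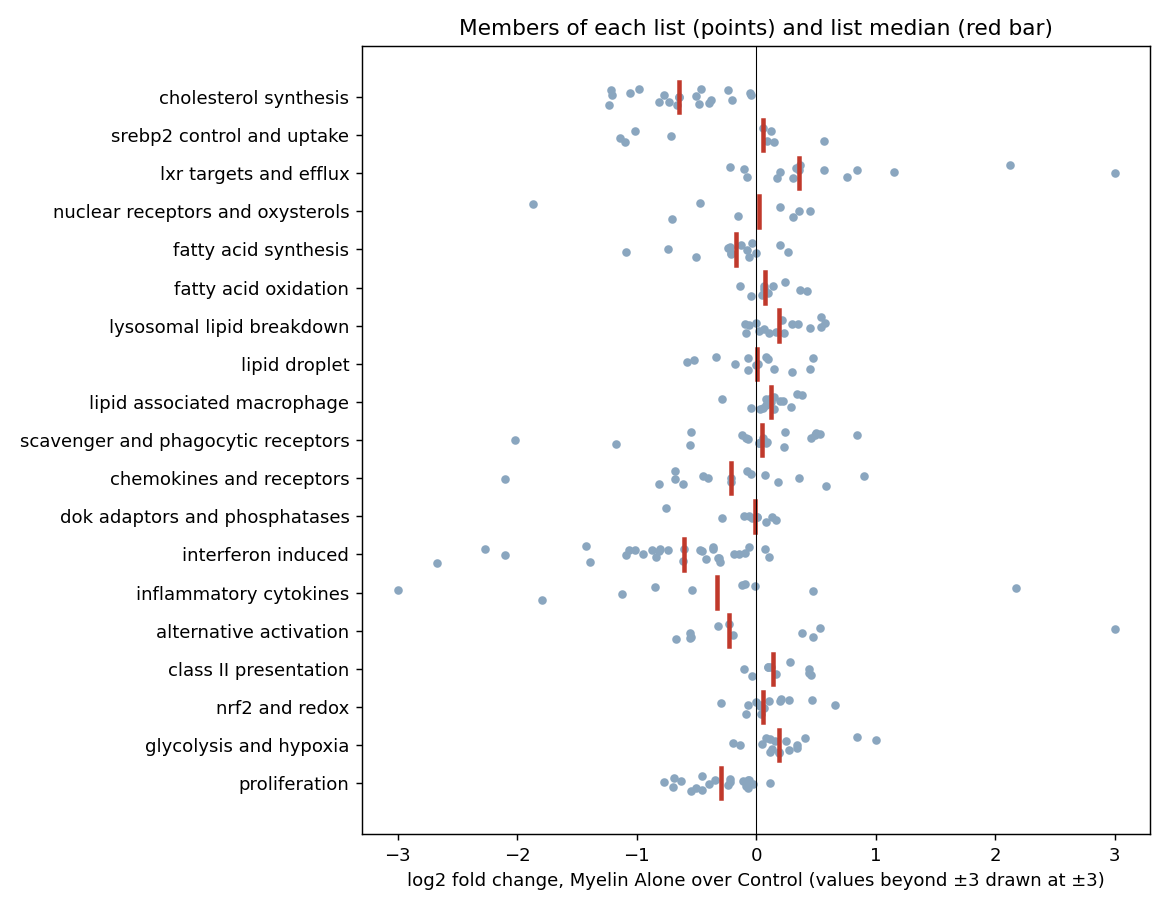
Log2 fold change of Myelin Alone over Control (x) for each tested member (blue points) of the 19 pathway lists (y), with the median of each list as a red bar; values beyond ±3 are drawn at ±3. All points of cholesterol synthesis lie below 0 (median −0.65), the LXR list is centred above 0 (median 0.36), and the interferon list spreads widely below 0 (median −0.61).

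Ranked by log2 fold change among genes of at least 10 CPM with an unadjusted p under 0.01 and the same direction in all pairs, 95 genes were higher and 78 lower. The 12 highest held Abca1 and Pltp and 10 genes outside the sterol lists. Plaat3, a phospholipase of the A type, had 23.2, 22.3 and 25.9 CPM in Myelin Alone and 10.5, 11.0 and 7.26 CPM in Control, with all Myelin Alone values above all Control values (1.33 ± 0.22, edgeR adjusted p = 0.0954). Gsta3, a glutathione transferase, had 73.3, 58.3 and 65.0 CPM in Myelin Alone and 31.0, 20.5 and 43.9 CPM in Control, also without overlap (1.10 ± 0.19). Cd24a, a surface sialoglycoprotein, had 16.5, 9.59 and 44.1 CPM in Myelin Alone and 6.07, 3.79 and 23.1 CPM in Control, higher in each pair but with 016 above the other numbers in both groups (1.23 ± 0.20, edgeR adjusted p = 0.0944).

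Il18bp, a secreted inhibitor of interleukin-18, had 34.9, 53.3 and 8.31 CPM in Myelin Alone and 7.19, 6.86 and 6.86 CPM in Control, a log2 fold change of 1.79 ± 0.41 that was small in 016. Slc39a4, a zinc importer, had 16.6, 15.1 and 41.9 CPM in Myelin Alone and 3.67, 6.97 and 14.9 CPM in Control (1.53 ± 0.31). Fcrls, an Fc receptor-like protein known as a microglial marker, had 33.2, 33.8 and 25.0 CPM in Myelin Alone and 16.9, 19.9 and 7.65 CPM in Control (1.07 ± 0.34). In these 3 genes every Myelin Alone library was above every Control library, and so it was for Lnx2, a ubiquitin ligase (1.29 ± 0.27). The remaining 3 were higher in every pair with overlapping groups: Cd300lf, an inhibitory receptor (1.18 ± 0.25), Arhgap24, a GTPase activating protein (1.01 ± 0.23), and Mmp14, a membrane-bound matrix metalloproteinase (1.29 ± 0.36). None of the 10 passed the adjusted threshold (edgeR).

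The 12 lowest included Sqle, Cyp51, Insig1 and Idi1, and 7 genes outside the sterol lists. Siglecf, a sialic acid binding lectin, had 37.4, 19.0 and 20.0 CPM in Myelin Alone and 57.3, 55.1 and 50.9 CPM in Control, with no overlap of the groups (−1.15 ± 0.31). Thbs1, the matrix protein thrombospondin-1, had 3.95, 3.53 and 5.54 CPM in Myelin Alone and 9.37, 7.19 and 17.2 CPM in Control (−1.37 ± 0.42), and Fnbp1l, which shapes membranes during endocytosis, had 6.22, 11.2 and 5.43 CPM in Myelin Alone and 16.2, 17.9 and 13.8 CPM in Control (−1.13 ± 0.25), both also separate. Clec4b1, a C-type lectin (−1.20 ± 0.29), Filip1l (−1.14 ± 0.30) and the mitotic kinase Nek2 (−1.58 ± 0.42) were lower in each pair with overlapping ranges. Mpo, the myeloperoxidase of neutrophil precursors, had 0, 0 and 27.2 CPM in Myelin Alone and 0.106, 1.10 and 111 CPM in Control (−2.56 ± 0.51), with the highest level of each group in 016. Elane and Prtn3, granule proteases of the same cells, had 212 and 104 counts in Myelin Alone 016 and 834 and 375 counts in Control 016.

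Markers of other cell types were mostly low. Oligodendrocyte markers summed to 130, 130 and 121 CPM in Myelin Alone and 130, 136 and 111 CPM in Control. That sum was made mainly by Mbp and Cnp, with 1009, 1314 and 1028 counts of Mbp in Myelin Alone and 1248, 1402 and 973 counts of Mbp in Control. Mog, Cldn11, Ermn, Mal, Opalin and Ugt8a were at 0 or had no entry. Monocyte markers ranged from 5.58 to 45.0 CPM in Myelin Alone and from 3.51 to 49.5 CPM in Control. The T cell markers Cd3d, Cd3e and Cd3g, the B cell markers Ms4a1 and Pax5, the NK cell markers Ncr1 and Gzma, and Sox2 and Olig2 of glioma progenitors were at 0 or had no entry. In the highest library of each group, T cell markers summed to 4.11 CPM in Myelin Alone and 4.76 CPM in Control. In the same way, B cell markers reached 3.69 CPM in Myelin Alone and 3.4 CPM in Control, NK cell markers 1.88 CPM in Myelin Alone and 2.79 CPM in Control, and glioma progenitor markers 24.2 CPM in Myelin Alone and 17.7 CPM in Control. Neuron markers reached 2.92 CPM in Myelin Alone and 2.99 CPM in Control, and astrocyte markers 9.31 CPM in Myelin Alone and 12.2 CPM in Control. Dendritic cell markers reached 10.3 CPM in Myelin Alone and 5.44 CPM in Control, and mast cell and basophil markers 12.2 CPM in Myelin Alone and 15.7 CPM in Control. Fibroblast markers reached 6.32 CPM in Myelin Alone and 10.0 CPM in Control, and endothelial markers 49.7 CPM in Myelin Alone and 48.8 CPM in Control. The endothelial sum was made mainly by Vwf, with 851, 847 and 896 counts in Myelin Alone and 793, 874 and 660 counts in Control. Pecam1 and Cdh5 were at 0 in every Myelin Alone library, with 1, 4 and 43 counts of Pecam1 and 2, 11 and 0 counts of Cdh5 in Control. Erythroid markers were at or below 0.213 CPM in all 6.

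Mobp, which encodes a structural protein of the myelin sheath made by oligodendrocytes, differed from the other oligodendrocyte markers in its pattern, and it was singled out after its values were seen. It had 10, 8 and 8 counts in Myelin Alone and 0, 0 and 0 counts in Control, with 16, 16 and 13 counts in Full Tumor and 0, 0 and 0 counts in Tumor without Myelin. Pooled over the group it reached 0.473 CPM in Myelin Alone, at least 8.85-fold higher than the limit of 0.0534 CPM that 3 counts over the Control group allow. It did not pass the adjusted threshold (edgeR adjusted p = 0.501). Of 24728 genes, 6 had at least 3 counts in each Myelin Alone library and 0 in each Control library, and 4 had the opposite pattern. Mobp was the 1 gene of the 6 that also had at least 3 counts in each Full Tumor library and 0 in each Tumor without Myelin library, and 0 of the 4 did so in the opposite sense.

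The difference that myelin goes with can be set beside the same difference in the presence of tumor material, that of Full Tumor over Tumor without Myelin, which shares no library with Myelin Alone minus Control but shares the mn numbers. Over all tested genes the median with tumor material was 0.0038, with 49.3% of genes below 0. For cholesterol synthesis the medians were −0.47 with and −0.65 without tumor material, and 19 of 20 genes were below 0 in both. Sqle had 58.7, 42.9 and 66.9 CPM in Full Tumor and 126, 81.3 and 119 CPM in Tumor without Myelin, a log2 fold change of −0.96 ± 0.14 with tumor material against −1.23 ± 0.14 without. Cyp51 had 44.7, 47.6 and 46.0 CPM in Full Tumor and 96.2, 73.5 and 80.0 CPM in Tumor without Myelin (−0.84 ± 0.14 against −1.06 ± 0.14). In both genes Full Tumor lay wholly below Tumor without Myelin.

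For LXR targets the medians were 0.23 with and 0.36 without tumor material, and 10 of 15 genes were above 0 in both. Abcg1 had log2 fold changes of 0.72 ± 0.11 with and 0.76 ± 0.11 without tumor material. Pltp had 676, 786 and 209 CPM in Full Tumor and 411, 607 and 164 CPM in Tumor without Myelin, a difference of 0.47 ± 0.13 against 1.15 ± 0.13, and its interaction had an unadjusted p of 0.00329 in edgeR without passing the adjustment over all genes. Abca1 differed by 0.86 ± 0.39 with and 2.12 ± 0.41 without tumor material. Dok2 differed by −0.46 ± 0.10 against −0.76 ± 0.10, and Ccl6 by −0.15 ± 0.11 against −0.81 ± 0.11, with an unadjusted interaction p of 0.00134 in edgeR. Of the ranked genes outside the sterol lists, Thbs1 changed sign, with 0.57 ± 0.40 against −1.37 ± 0.42. Fnbp1l (0.20 ± 0.25 against −1.13 ± 0.25) and Fcrls (−0.39 ± 0.32 against 1.07 ± 0.34) also changed sign. The unadjusted interaction p in edgeR was 0.00565 for Thbs1, 0.00287 for Fnbp1l and 0.00922 for Fcrls. The other ranked genes outside these lists kept their sign, Lnx2 with 0.075 ± 0.26 against 1.29 ± 0.27. In the test of the interaction, the difference with tumor material minus that without, 0 of 13414 genes passed the adjusted threshold (0%, lowest edgeR adjusted p = 1.00), and 393 had an unadjusted p under 0.05 (2.93%). A p that misses the threshold does not show that the differences were alike. Medians of −0.27 and −0.29 for proliferation, of −0.28 and −0.61 for interferon-induced genes and of 0.19 and 0.19 for glycolysis and hypoxia were found with and without tumor material, in that order. In the same order, medians took opposite signs for class II presentation (−0.097 and 0.14) and alternative activation (0.16 and −0.23). So did SREBP2 control and uptake (−0.13 and 0.052), scavenger and phagocytic receptors (−0.020 and 0.046) and nuclear receptors (−0.0038 and 0.021). The other pathway lists kept their sign, chemokines with −0.0030 and −0.21. Microglia markers, with −0.30 and 0.36, did not.

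**Figure D5:**
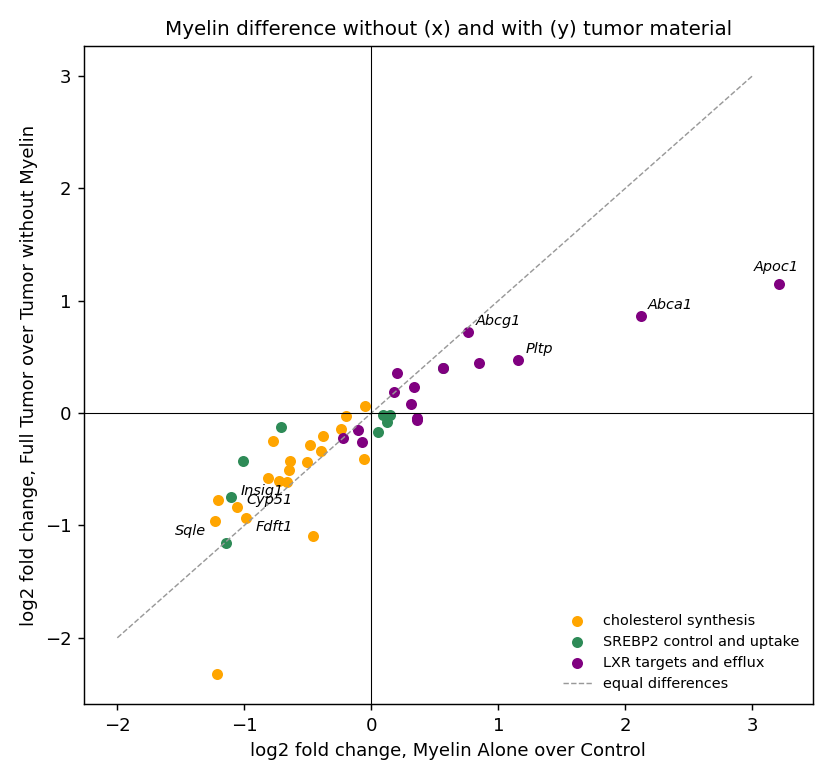
Log2 fold change of Full Tumor over Tumor without Myelin (y) against that of Myelin Alone over Control (x) for the genes of cholesterol synthesis (orange), SREBP2 control and uptake (green) and LXR targets (purple), with a dashed line where both are equal. Nearly all orange points lie below 0 on both axes (19 of 20 genes), and Pltp, Abca1 and Apoc1 lie farther from 0 on the x axis than on the y axis.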

How the data were processed

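Raw gene counts of 12 libraries were deposited by the authors, with identifiers, symbols and positions. The build is mm10, per the submitters' processing notes. No source used here names the aligner, the counting program or the strand setting, so overlapping and antisense genes cannot be told apart. The table held 24728 genes, of which 11 symbols were duplicated. No replicates were duplicates: the lowest chi-square per degree of freedom within groups was 23.9 over genes of at least 20 counts.

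From the deposited counts, CPM with TMM factors, log2 fold changes and two-sided tests were computed with edgeR 4.0.16 (R 4.3.3): quasi-likelihood test, filterByExpr (13414 genes, 99.9% of counts), group and mn number as terms over all 12 libraries, Benjamini-Hochberg adjustment over the tested genes, threshold 0.05. The fit had 6 residual degrees of freedom and a biological coefficient of variation of 0.266. A standard error is the size of the log2 fold change divided by the root of its F statistic. Pair differences used log2(CPM + 0.5).

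Libraries were paired by the mn number. Deviations from group means correlated across genes at r over 0.1 in 18 of 18 same-numbered pairs (0.138 to 0.727). Between Myelin Alone and Control, r was 0.242 to 0.552 for the same number and at most 0.073 for different numbers. Some differently numbered pairs elsewhere were over 0.1 too. Full Tumor 957 had 0.319 with Tumor without Myelin 958 and 0.285 with Tumor without Myelin 957. The cut of 0.1 thus does not by itself separate the numbers 957 and 958. Taking deviations from means of 3 libraries also lowers r between different numbers. The labels give the number but not what it marks.

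Genes named are those past the threshold; the 12 highest and 12 lowest log2 fold changes among protein-coding genes of at least 10 CPM in the higher group, an unadjusted p under 0.01 and the same direction in 3 pairs; members of the 3 sterol lists; and, of other lists, the members of lowest p or highest level. A few list members outside that rule were named after their values were seen. Some genes that the rule covers are not reported here, although counts, medians and sums of the lists include them. The comparison, members and lists were chosen with earlier results of these data known. The procedure was tested on simulated counts, in 3 runs with 200 genes changed in Myelin Alone. With the block, a mean of 50% of 2-fold and 72.3% of 4-fold changes were called, with 8.33 false calls per run. Without the block these were 10.7% and 54.3%, with 0 false calls. Many changes of such size would thus be missed. Alternatives used limma 3.58.1 (voom) and DESeq2 1.42.0, other scalings, other filters, and left-out libraries. Promoter windows came from RefSeq (GRCm38.p6).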

Additional observations from a re-analysis of the deposited data

How the results depend on the processing

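The number of genes called between Myelin Alone and Control, 5, was 5 with DESeq2 size factors in edgeR and 6 with library totals alone. It was 1 in a fit of the 6 libraries only, 20 without a filter on low counts, 10 with at least 10 CPM in 3 libraries, 10 with limma-voom and 69 with DESeq2, both with the block. Under all of these except the fit of 6 libraries, the 5 genes were among those called. Left-out libraries gave 0 to 9 calls: 0 without Myelin Alone 957, 958 or 016 or Control 958, 1 without Control 957, 7 without Control 016, 3 without Full Tumor 957, 5 without Full Tumor 958, 7 without Full Tumor 016 and 2 without any single Tumor without Myelin library. Leaving out a whole number gave 0 for 957, 0 for 958 and 9 for 016, the last with 0 of the 5 genes. The cause was not tested.

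With no replicate block, 0 genes were called and 279 had an unadjusted p under 0.05, while the log2 fold changes were −1.27 for Sqle, 1.17 for Pltp, −1.06 for Cyp51, −0.74 for Dok2 and −0.81 for Ccl6. The medians of cholesterol synthesis (−0.80 to −0.58) and of LXR targets (0.29 to 0.44) kept their sign in all 23 alternatives. The interaction gave 0 calls under each alternative run. It was not run on the 6 libraries alone, which hold neither group with tumor material.

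Of the 149 named genes, none that had passed the threshold took the other sign in any alternative. Of those that had not passed it, 36 with a log2 fold change within its standard error took the other sign in at least 1 alternative, as did 5 with a log2 fold change above it when libraries or numbers were left out. Arl4c ranged from −0.017 (without number 958) to 0.36, and Soat1 from −0.059 (without number 957; −0.046 without Myelin Alone 957) to 0.35. Il1rn ranged from −1.32 to 0.24 (without Control 016), Col1a2 from −2.29 to 0.072 (without Control 957), and Col3a1 from −7.61 to 0.64 (without Control 957; 0.065 without number 957). Depth limits values near 0.145 to 0.175 CPM, the level of 3 counts.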
